A study of Mus musculus with 6 samples.

Results

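The nuclear receptors are a superfamily of transcription factors, many of which are switched on by small lipid-soluble ligands such as steroids, thyroid hormone, retinoids, vitamin D, fatty acids and oxysterols. The 35 receptors described here are the members of that superfamily other than FXR itself, leaving out the clock receptors and the NR4A group, and they were chosen by gene symbol. Of the 35, 33 had a row among the 19342 genes counted, while *Nr2e1* and *Nr5a1* were not analysed here. Enough reads for a test were found for 25 of the 33, and the other 8 are given by their counts.

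Most of these receptors share a DNA-binding domain of zinc fingers and a ligand-binding domain. FXR, the bile acid receptor encoded by *Nr1h4*, binds many of its sites as a heterodimer with a retinoid X receptor, and the receptors for thyroid hormone, retinoic acid, vitamin D, oxysterols and fatty acids use the same partner. In the islet, HNF4A is known for its part in a form of monogenic diabetes, and the glucocorticoid, vitamin D and thyroid hormone receptors are known to bear on insulin secretion.

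The data are 6 bulk RNA-seq libraries of pancreatic islets, released from the pancreas with collagenase. The animals were 3 months old, and the groups were FXR+/+ mice, the wild type controls, and FXR-/- mice, the FXR knockout, with 3 libraries each. Each genotype had 1 library from a female (female 1) and 2 from males (male 1 and male 2). The knockout was not limited to islet cells by any label, no other allele or treatment was named, and each library held a group of islets, so the p-values measure the spread between these libraries only. Whether a library held the islets of 1 mouse or of several was not given.

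The libraries held 20629306 to 30139235 counts. *Nr1h4* stood at 14.2, 13.6 and 12.2 CPM (counts per 1e+06 counts of a library, after TMM scaling) in female 1, male 1 and male 2 of FXR+/+ and at 5.67, 7.63 and 5.81 CPM in FXR-/-, a log2 fold change of -1.07 ± 0.16 (SE). The adjusted p of *Nr1h4* was 0.22 by edgeR with a sex term, 0.044 with a replicate block instead and 7.9e-05 by DESeq2. The transcript was thus lower in every FXR-/- library without being lost. Summed beta cell markers lay between 185200 and 269300 CPM in all libraries, and summed acinar markers, which come from exocrine tissue, between 32580 and 114500 CPM, with the highest values in male 1 of both genotypes (101000 CPM in FXR+/+ and 114500 CPM in FXR-/-).

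The promoter of a single member held the element that retinoic acid receptors are known to bind, and it is shown because the receptor in question, *Rarb*, had the largest fold difference between the genotypes. The 250 bases before the RefSeq start sites of GRCm38.p6 were searched on both strands for pairs of half-sites, which were AGGTCA as the canonical form, GGGTCA as the form that starts with another purine, and the forms AGTTCA as well as GGTTCA that occur in known retinoic acid elements, in tandem with 1, 2, 4 or 5 bases between them or inverted with 1 base between them, the last being the arrangement FXR prefers. Promoter sequence was found for 31 of the 35 receptors, with 50 start sites. The tandem pair with 5 bases between was in 0.0883% of 32851 promoters, and among the receptors *Rarb* was the one with a match of any kind. The tandem pairs with 1, 2 and 4 bases between were in 0.164%, 0.174% and 0.067% of promoters, and the inverted pair in 0.0304%. Among the target genes examined further on, *Cyp26a1*, which encodes an enzyme that degrades retinoic acid, was the one with a match. Capitals mark the match, which ends 37 bases before the start of *Rarb* (chr14:16575477-16575726, minus strand) and 16 bases before that of *Cyp26a1* (chr19:37697558-37697807, plus strand).
Rarb: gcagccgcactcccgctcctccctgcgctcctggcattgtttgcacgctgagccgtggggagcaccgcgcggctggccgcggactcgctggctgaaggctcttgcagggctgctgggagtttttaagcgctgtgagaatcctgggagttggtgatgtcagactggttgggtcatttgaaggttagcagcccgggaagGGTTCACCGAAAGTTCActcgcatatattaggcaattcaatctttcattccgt
Cyp26a1: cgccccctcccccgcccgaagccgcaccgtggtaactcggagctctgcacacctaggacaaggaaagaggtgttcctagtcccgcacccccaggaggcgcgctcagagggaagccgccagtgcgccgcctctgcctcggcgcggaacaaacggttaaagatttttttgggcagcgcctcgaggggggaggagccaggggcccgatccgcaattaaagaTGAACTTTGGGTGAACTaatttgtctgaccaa
A match is a stretch of letters and not a measured binding site.

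*Vdr*, the vitamin D receptor, was the most abundant of the receptors per length of transcript. Its level in FXR+/+ islets was 23.0 ± 0.174 CPM per kb of exonic length (mean ± SD, n = 3). It was followed by *Nr2f6*, an orphan receptor, at 15.7 ± 0.905, and by *Nr1h2*, the oxysterol receptor LXRbeta, at 13.7 ± 1.46 CPM per kb. The glucocorticoid receptor *Nr3c1* stood at 13.7 ± 0.841, the thyroid hormone receptor *Thra* at 13.4 ± 2.47, the retinoid X receptors *Rxrb* and *Rxra* at 12.8 ± 1.20 and 10.9 ± 1.40, and *Hnf4a* at 7.88 ± 0.186 CPM per kb. *Vdr* lay above *Nr2f6* by more than the SD of both, as *Rxra* did above *Hnf4a* and *Hnf4a* above the next receptor. The 6 receptors from *Nr2f6* to *Rxra* formed a run in which no neighbour differed from the next by more than the sum of their SDs.

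A middle tier held *Rarg* at 5.42, *Esrra* at 5.09, *Rara* at 4.59 and *Ppard* at 4.56 CPM per kb, and then *Nr1h3*, the LXRalpha gene, at 3.50, *Hnf4g* at 3.10, *Pparg* at 2.57 and *Nr2c2* at 2.39 CPM per kb. The mineralocorticoid receptor *Nr3c2* stood at 2.14, *Esrrg* at 2.03, *Thrb* at 1.79 and *Nr6a1* at 1.42 CPM per kb. Below 1 CPM per kb were *Nr2f2* at 0.548, *Ppara* at 0.480, *Nr1i2* (the xenobiotic receptor PXR) at 0.183, *Rarb* at 0.136 and *Nr2f1* at 0.109 CPM per kb. *Thra* thus lay above *Thrb*, and *Ppard* above *Pparg* and *Ppara*, by more than the sum of their SDs.

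**Figure D1:**
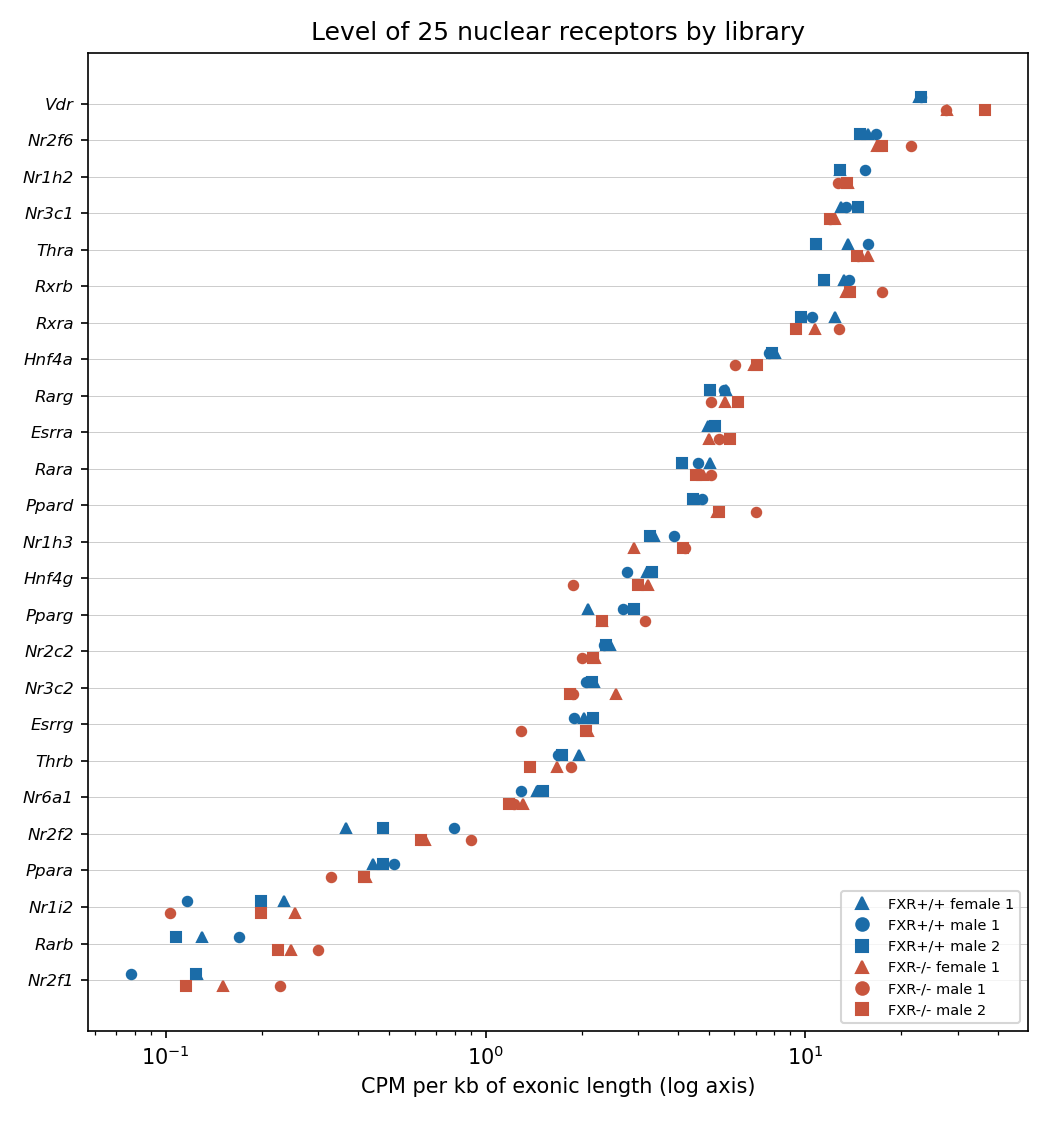
Level of the 25 tested receptors in each of the 6 libraries, in CPM per kb of exonic length on a log axis, with FXR+/+ in blue, FXR-/- in red, and triangles, circles and squares for female 1, male 1 and male 2. *Vdr* lies at the top, at 23.0 CPM per kb in FXR+/+, and *Nr2f1* at the bottom, at 0.109 CPM per kb.

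The 8 receptors not tested were *Nr1i3*, *Esr1*, *Pgr*, *Esrrb*, *Nr2e3*, *Rxrg*, *Esr2* and *Nr0b1*. None reached more than 14 counts in any library. *Esr1*, the oestrogen receptor alpha gene, had 8, 7 and 11 counts in FXR+/+ and 10, 7 and 6 in FXR-/-. *Nr1i3*, which encodes the xenobiotic receptor CAR, had 3, 7 and 14 counts in FXR+/+ and 9, 7 and 8 in FXR-/-, and 74.9% of its exonic bases are shared with *Tomm40l* on the other strand. The progesterone receptor *Pgr* had 7, 3 and 9 counts in FXR+/+ and 10, 5 and 5 in FXR-/-. These receptors were detected at a level too low for their genotypes to be compared. Totals over the 6 libraries were 20 counts for *Esrrb*, 15 for *Nr2e3*, 14 for *Rxrg* and 6 for *Esr2*. *Nr0b1*, which encodes SHP's relative DAX1, had 1 count in 1 library, and a count of 0 in the others allows a level of up to 0.0947 to 0.158 CPM, counting error only.

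The comparison of the genotypes asks whether loss of FXR went with a different level of its relatives. None of the 25 tested receptors was called at an adjusted p under 0.05 (edgeR quasi-likelihood test with terms for sex and genotype), beside a background of 0% of the 14619 genes tested, whose lowest adjusted p was 0.129. The lowest adjusted p of a receptor was 0.41. With DESeq2 the background was 1.21% and none of 22 receptors was called, while *Rarb*, *Nr1i2* and *Nr2f1* were given no adjusted p by that tool. With a replicate block instead of the sex term, the background was 0.157% and no receptor was called.

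An unadjusted p under 0.05 was found for 4 of the 25 receptors, 16% of them, where the background was 10.3%. For 8 of the 25, or 32%, all libraries of one genotype lay above all of the other, where the background was 15.4%. Of these 8, *Rarb*, *Vdr*, *Ppard* and *Nr2f6* were higher in FXR-/- and *Hnf4a*, *Nr3c1*, *Nr2c2* and *Ppara* lower. The median log2 fold change over the 25 was 0.02, against 0.01 over all genes tested, with 14 receptors higher and 11 lower. For 20 of the 25 the fitted log2 fold change was under 0.3 in size. With each library left out in turn, 17 of the 25 kept their direction, and the 8 that turned in at least 1 of these fits were *Esrrg*, *Nr1h2*, *Nr1h3*, *Nr1i2*, *Nr3c2*, *Pparg*, *Rarg* and *Rxra*. When a female library is left out, the sex term takes up the remaining female. Both of these fits therefore compare the males alone, and values given here without a female library rest on the male libraries.

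**Figure D2:**
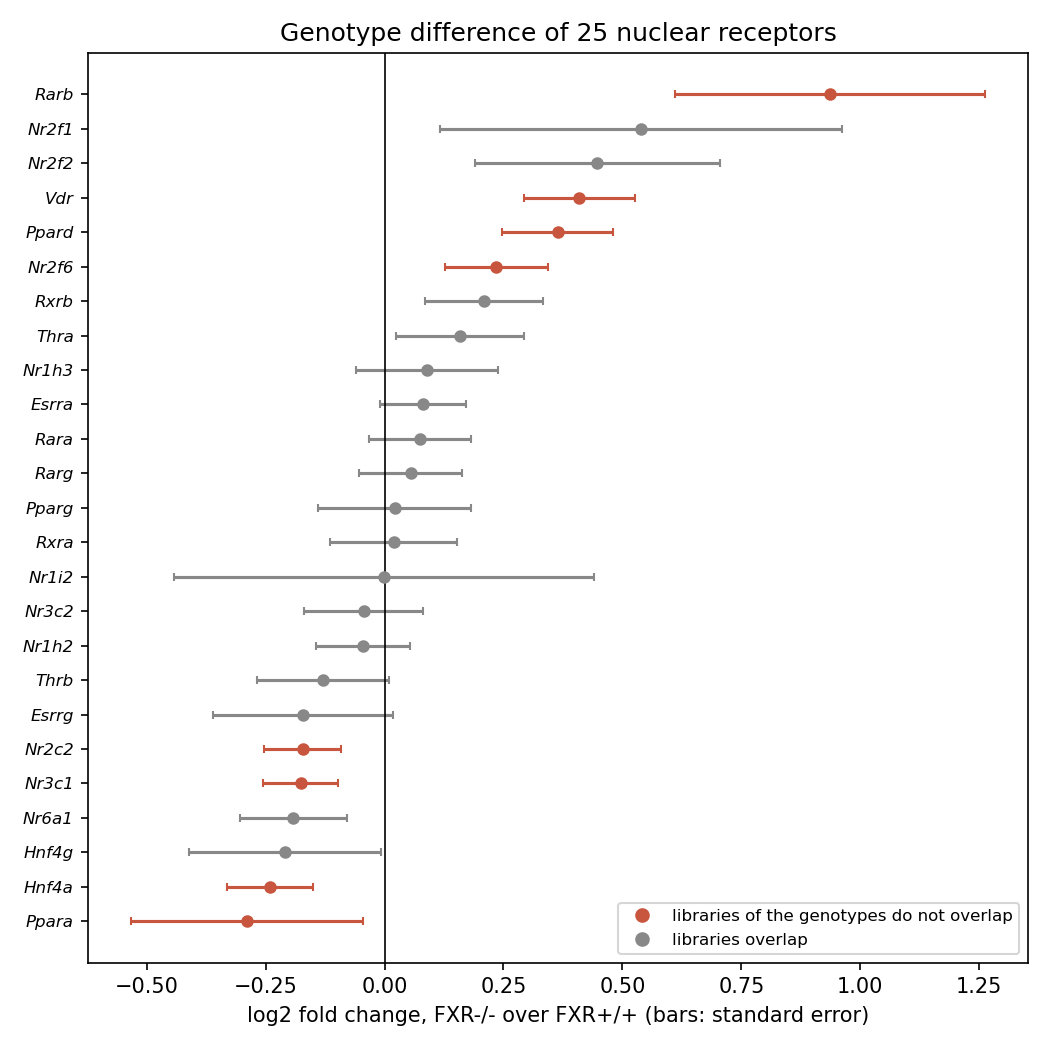
Fitted log2 fold change of FXR-/- over FXR+/+ for the 25 tested receptors with its standard error, in red where the libraries of the genotypes do not overlap and in grey where they do. The values run from -0.29 for *Ppara* to 0.94 for *Rarb*.

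Among the receptors for thyroid hormone and retinoic acid, *Rarb*, the retinoic acid receptor beta gene, was at 0.682, 0.892 and 0.568 CPM in female 1, male 1 and male 2 of FXR+/+ and at 1.30, 1.58 and 1.18 CPM in FXR-/-. All FXR-/- libraries lay above all FXR+/+ libraries. Fitted over all libraries, the difference was 0.94 ± 0.33 (SE) on the log2 scale, 1.91-fold, with an adjusted p of 0.45 by edgeR. The exact two-sided permutation test gave p = 0.1, which is the smallest that 3 libraries against 3 can give and which holds for each of the 8 receptors that do not overlap.

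The *Rarb* counts were few and partly shared with another gene. *Top2b*, on the other strand, covers 1793 of its exonic bases, or 34.1%, and the library preparation as described does not mark the strand, so reads of both genes cannot be told apart there. The last *Rarb* exon, which lies within *Top2b*, had 9, 3 and 10 counts in FXR+/+ and 16, 7 and 12 in FXR-/-. The exon that begins directly after the promoter printed above lies outside *Top2b* and had 2, 3 and 1 counts in FXR+/+ and 4, 6 and 3 in FXR-/-. *Top2b* itself was at 79.8 ± 9.01 CPM in FXR+/+ and 73.3 ± 6.67 CPM in FXR-/-, a log2 fold change of -0.12 ± 0.08.

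The other receptors of this group overlapped between the genotypes. *Thra* was at 63.0, 72.6 and 49.9 CPM in FXR+/+ and at 72.4, 67.6 and 67.0 CPM in FXR-/-. Its log2 fold change was 0.16 ± 0.13, with an adjusted p of 0.65. It was 0.02 without FXR+/+ male 2 and 0.33 without FXR+/+ male 1. The last *Thra* exon (chr11:98768157-98769006) carries the end of the non-hormone-binding form TRalpha2 and held 77.3% of the exon counts of the gene. In that exon 408, 455 and 406 reads were counted in FXR+/+ and 522, 423 and 468 in FXR-/-. The exon before it (chr11:98764278-98765113), with the end of the hormone-binding form TRalpha1, had 99, 99 and 112 counts in FXR+/+ and 122, 55 and 92 in FXR-/-. Neither exon was called, at adjusted p of 0.70 and 0.89 over the 26998 exons tested with edgeR, of which 0.0185% were called. The clock receptor *Nr1d1* runs on the other strand over 263 bases of *Thra*, where reads of both genes cannot be told apart. *Nr1d1* stood at 52.3, 160 and 56.6 CPM in FXR+/+ and at 44.4, 94.2 and 58.8 CPM in FXR-/-. *Thrb*, *Rara* and *Rarg* had log2 fold changes of -0.13 ± 0.14, 0.07 ± 0.11 and 0.05 ± 0.11. That of *Thrb* was -0.03 without FXR-/- male 2 and -0.28 without FXR-/- male 1. That of *Rara* was 0.005 without FXR+/+ male 2 and 0.14 without FXR+/+ female 1.

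Of the peroxisome proliferator-activated receptors, which respond to fatty acids, *Ppard* was at 33.7, 35.7 and 33.5 CPM in FXR+/+ and at 39.8, 52.7 and 40.3 CPM in FXR-/-. Every FXR-/- library was above every FXR+/+ library, and FXR-/- male 1 was the highest. This gave a log2 fold change of 0.36 ± 0.12, with an adjusted p of 0.43, and of 0.22 without that library. The 2 *Ppard* exons with over 50 counts went the same way, with log2 fold changes of 0.79 ± 0.24 and 0.40 ± 0.15. *Ppara* was at 1.71, 1.98 and 1.83 CPM in FXR+/+ and at 1.62, 1.26 and 1.60 CPM in FXR-/-. The genotypes did not overlap, yet the gap between the nearest libraries was small, and the log2 fold change was -0.29 ± 0.24 with an adjusted p of 0.65, and -0.18 without FXR-/- male 1. *Pparg*, the adipocyte form, ran from 6.18 to 8.59 CPM in FXR+/+ and from 6.85 to 9.31 CPM in FXR-/-.

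*Vdr* was at 128.7, 130.3 and 130.5 CPM in FXR+/+, a very narrow spread, and at 157, 155 and 206 CPM in FXR-/-. All 3 FXR-/- libraries were higher, with male 2 the farthest. *Vdr* had a log2 fold change of 0.41 ± 0.12, 1.33-fold, with an unadjusted p of 0.0088 and an adjusted p of 0.41 by edgeR. Without FXR-/- male 2 its log2 fold change was 0.27. DESeq2 gave an adjusted p of 0.076 for *Vdr*, the lowest of 17 alternative settings, and the highest was 0.71. The last exon of *Vdr* (chr15:97854427-97857631) held 98.7% of its exon counts, with 2186, 1810 and 3056 counts in FXR+/+ and 2735, 2111 and 3483 in FXR-/-, a log2 fold change of 0.40 ± 0.14.

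The oxysterol receptors *Nr1h2* and *Nr1h3* and the xenobiotic receptor *Nr1i2* overlapped between the genotypes. *Nr1h2* was at 43.1, 51.6 and 43.3 CPM in FXR+/+ and at 45.6, 42.5 and 45.5 CPM in FXR-/-, a log2 fold change of -0.05 ± 0.10 with an adjusted p of 0.87. *Nr1h3* had a log2 fold change of 0.09 ± 0.15. *Nr1i2* was at 0.597, 0.297 and 0.505 CPM in FXR+/+ and at 0.648, 0.263 and 0.505 CPM in FXR-/-.

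*Hnf4a* was at 39.0, 37.2 and 37.9 CPM in FXR+/+ and at 33.3, 29.1 and 34.1 CPM in FXR-/-. The lowest FXR+/+ library was above the highest FXR-/- library. *Hnf4a* had a log2 fold change of -0.24 ± 0.09, 0.847-fold, with an unadjusted p of 0.030 and an adjusted p of 0.46 by edgeR. Its last exon held 98.5% of the exon counts and gave -0.25 ± 0.12. *Hnf4g*, its close relative, was at 8.44, 7.29 and 8.71 CPM in FXR+/+ and at 8.47, 4.94 and 7.87 CPM in FXR-/-, where male 1 was the low library. For *Hnf4g* the fit gave -0.21 ± 0.20, with -0.02 without that library and -0.38 without FXR-/- male 2.

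The retinoid X receptors, the dimer partners, overlapped between the genotypes. *Rxra* was at 67.9, 57.5 and 52.9 CPM in FXR+/+ and at 58.7, 69.8 and 51.3 CPM in FXR-/-, a log2 fold change of 0.02 ± 0.13 with an adjusted p of 0.96. *Rxrb* was at 52.6, 54.6 and 45.5 CPM in FXR+/+ and at 53.2, 68.9 and 55.0 CPM in FXR-/-, higher in each same-numbered pair but with overlapping groups. The log2 fold change of *Rxrb* was 0.21 ± 0.12 with an adjusted p of 0.55, and 0.08 without FXR-/- male 1.

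Among the orphan receptors, *Nr2f6* was at 46.8, 49.6 and 44.2 CPM in FXR+/+ and at 50.1, 63.7 and 51.9 CPM in FXR-/-. The groups did not overlap, though the lowest FXR-/- library was close to the highest FXR+/+ library. The log2 fold change was 0.24 ± 0.11 with an adjusted p of 0.49, and it was 0.12 without FXR-/- male 1 and 0.15 with a term for acinar marker RNA. *Ocel1*, on the other strand, shares 54.4% of the exonic bases of *Nr2f6* and was itself at 7.51 ± 0.506 CPM in FXR+/+ and 8.38 ± 1.26 CPM in FXR-/-. The first *Nr2f6* exon lies outside *Ocel1* and gave a log2 fold change of 0.33 ± 0.16. The other 3 exons lie between the ends of *Ocel1* and gave, from the first of them to the last, 0.26 ± 0.37, 0.37 ± 0.20 and 0.09 ± 0.15, the last exon holding 37.2% of the exon counts with genotypes that overlap.

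*Nr2c2*, the testicular receptor 4 gene, was at 36.6, 35.2 and 35.5 CPM in FXR+/+ and at 32.9, 29.9 and 32.4 CPM in FXR-/-. All FXR-/- libraries were lower, and the log2 fold change was -0.17 ± 0.08 with an adjusted p of 0.49. *Mrps25*, on the other strand, shares 30.7% of the exonic bases of *Nr2c2* and had a log2 fold change of -0.05 ± 0.14. *Nr2f2*, the COUP-TFII gene, was at 3.15, 6.89 and 4.14 CPM in FXR+/+ and at 5.59, 7.78 and 5.43 CPM in FXR-/-. It was higher in each same-numbered pair and highest in male 1 of both genotypes, the libraries with the most acinar marker RNA. *Nr2f2* had a log2 fold change of 0.45 ± 0.26, which was 0.21 ± 0.20 with a term for acinar marker RNA. That of *Nr2f2* was 0.27 without FXR+/+ female 1, 0.28 without FXR+/+ male 2 and 0.73 without FXR+/+ male 1. *Nr2f1* had 0.54 ± 0.42, which was 0.20 without FXR-/- male 1.

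*Nr3c1*, the glucocorticoid receptor gene, was at 99.8, 103 and 112 CPM in FXR+/+ and at 95.1, 91.8 and 91.7 CPM in FXR-/-. The genotypes did not overlap, and the log2 fold change was -0.18 ± 0.08, 0.885-fold, with an adjusted p of 0.48. *Nr3c2* was at 14.1, 13.4 and 13.98 CPM in FXR+/+ and at 16.6, 12.2 and 11.9 CPM in FXR-/-, on both sides of the wild type values. The oestrogen-related receptors *Esrra* and *Esrrg*, which act on mitochondrial genes, overlapped between the genotypes. *Esrra* had a log2 fold change of 0.08 ± 0.09. *Esrrg* was at 12.6, 11.8 and 13.5 CPM in FXR+/+ and at 13.0, 7.99 and 12.8 CPM in FXR-/-, where male 1 alone was low. The log2 fold change of *Esrrg* was -0.17 ± 0.19, with 0.02 without that library and -0.35 without FXR-/- male 2. *Nr6a1*, the germ cell nuclear factor gene, had a log2 fold change of -0.19 ± 0.11, which was -0.11 without FXR+/+ male 2.

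**Figure D3:**
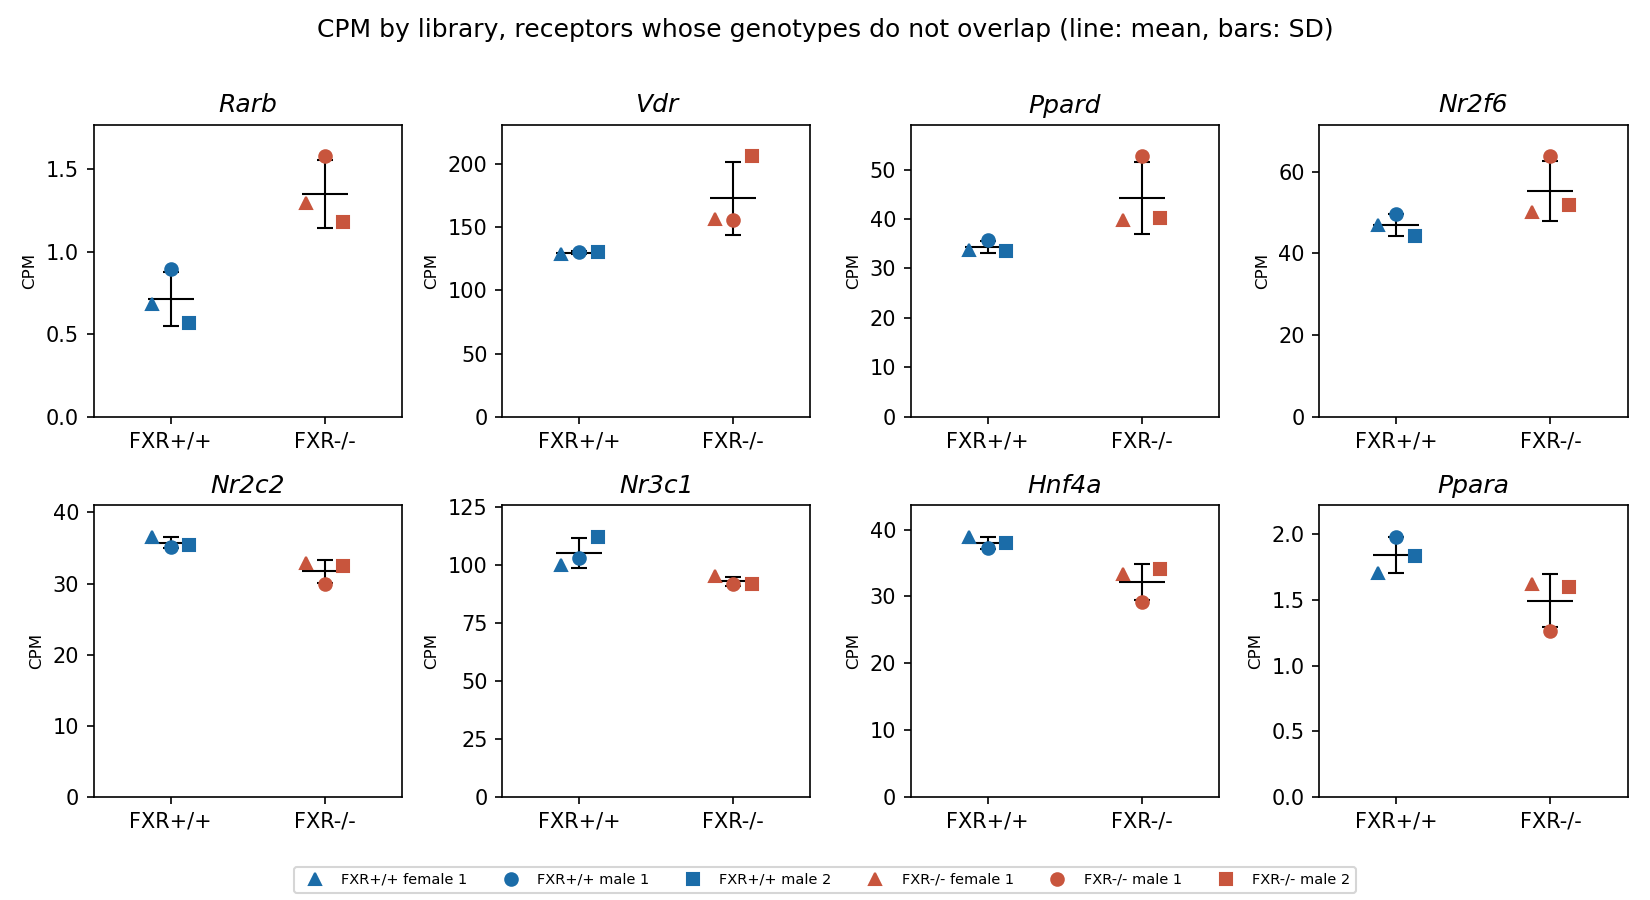
CPM in each library for the 8 tested receptors whose genotypes do not overlap, FXR+/+ in blue and FXR-/- in red, with the mean as a line and the SD as bars. *Vdr* lies between 128.7 and 130.5 CPM in FXR+/+ and between 155 and 206 CPM in FXR-/-.

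The cells that make up an islet preparation can differ between libraries, and in bulk tissue a change in the share of a cell type and a change in RNA per cell cannot be told apart. The summed endothelial markers were at 498 to 587 CPM in FXR+/+ and at 604 to 987 CPM in FXR-/-, without overlap, and all 6 of 6 genes were higher. The summed stellate cell and fibroblast markers were at 42.3 to 149.6 CPM in FXR+/+ and 119 to 144 CPM in FXR-/-, with 7 of 7 genes higher by the fit. Macrophage markers were at 99.5 to 133.5 CPM and 131 to 155 CPM, with 5 of 6 higher. No marker gene with a row was at 0 in every library. Lymphocyte markers went the other way, at 20.2 to 36.1 CPM in FXR+/+ and 14.4 to 24.7 CPM in FXR-/-, and neither of the 2 genes tested was higher. Summed ductal markers were at 230.7 to 263.2 CPM in FXR+/+ and 209.6 to 240.9 CPM in FXR-/-, with overlap. Of the 4 ductal genes tested, 3 were higher, among them *Sox9* at 0.93 ± 0.35 and *Krt19* at 0.59 ± 0.23, while *Krt7* was -0.21 ± 0.10. All 4 pericyte and smooth muscle genes were higher, with a median log2 fold change of 0.25. Of the beta cell genes 5 of 6 were higher. *Mafa* among them was at 0.57 ± 0.09, with an adjusted p of 0.22 by edgeR and 8.9e-11 by DESeq2. The part of these cell types in the differences above was not tested. Summed acinar markers were at 37430, 101000 and 32580 CPM in FXR+/+ and at 47140, 114500 and 67610 CPM in FXR-/-, higher in each same-numbered pair, and 7 of 7 genes were higher by the fit, with a median log2 fold change of 0.42. With a term for acinar marker RNA in the model, 2 of the receptors, *Vdr* and *Ppard*, had an unadjusted p under 0.05 in place of 4, beside a background of 8.27%. The log2 fold change with that term was 0.09 for *Rxrb*, 0.04 for *Thra*, -0.05 for *Hnf4g* and -0.04 for *Esrrg*. It turned in sign for 3 receptors, *Pparg*, *Rxra* and *Nr1i2*, whose values without the term were 0.02, 0.02 and 0.00.

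Sex was the other condition in the labels, with 1 female library in each genotype. No receptor was called for sex, and the lowest adjusted p was 0.69, beside 0.0547% of all genes. At an unadjusted p under 0.05 there were 0 receptors, beside a background of 7.48%, and DESeq2 called none. The fitted log2 differences of female over male ran from -0.50 for *Nr2f2* to 0.61 for *Nr1i2*. A difference of the genotype effect between the sexes was tested with an interaction term, which rests on the 1 female library of each genotype, and 0 of the 25 receptors had an unadjusted p under 0.05, beside a background of 1.48%.

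The genes around the receptors were read from 10 lists with 87 genes, 71 of which were tested. An unadjusted p under 0.05 was found for 10 of the 71, 14.1% beside the background of 10.3%, with 7 higher and 3 lower in FXR-/-. None was called by the main test. With the replicate number as a block, 1 was called, beside 0.157% of all genes, and 16 had an unadjusted p under 0.05, which is 22.5% beside a background of 16.1% in that fit.

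The targets of the retinoic acid receptors had the highest median log2 fold change of these lists. The lists were chosen with earlier results of these data known, so their order is a description and not a test. All 4 tested of 8 were higher in FXR-/-, with a median log2 fold change of 0.87 against 0.01 over all genes, and 3 had an unadjusted p under 0.05. *Cyp26b1*, which encodes an enzyme that degrades retinoic acid, was at 1.49, 2.33 and 0.568 CPM in FXR+/+ and at 8.95, 14.2 and 4.71 CPM in FXR-/-. Every FXR-/- library was above every FXR+/+ library, with a log2 fold change of 2.71 ± 0.55. The adjusted p of *Cyp26b1* was 0.27 by edgeR, 0.0032 with the replicate number as a block and 0.046 by DESeq2. *Dhrs3*, a retinaldehyde reductase gene, was at 6.61, 10.6 and 5.37 CPM in FXR+/+ and at 10.9, 15.4 and 12.9 CPM in FXR-/-, a log2 fold change of 0.79 ± 0.24 with an adjusted p of 0.43.

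*Tgm2*, the transglutaminase 2 gene, was at 6.69, 14.1 and 4.51 CPM in FXR+/+ and at 17.5, 17.3 and 13.0 CPM in FXR-/-. FXR+/+ male 1 lay within the FXR-/- values, and the log2 fold change was 0.94 ± 0.38 with an adjusted p of 0.48, running from 0.63 without FXR+/+ male 2 to 1.58 without FXR+/+ male 1. A further 4 targets, *Cyp26a1* among them, had too few counts for a test. In each genotype male 1 held the highest *Cyp26b1*, *Dhrs3* and *Rarb* values and the highest stellate cell, endothelial and acinar marker sums. The stellate and acinar sums overlapped between the genotypes, and the endothelial sum, at most 587 CPM in FXR+/+ and at least 604 CPM in FXR-/-, did not. The part of the endothelial and stellate markers in these values was not tested.

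**Figure D4:**
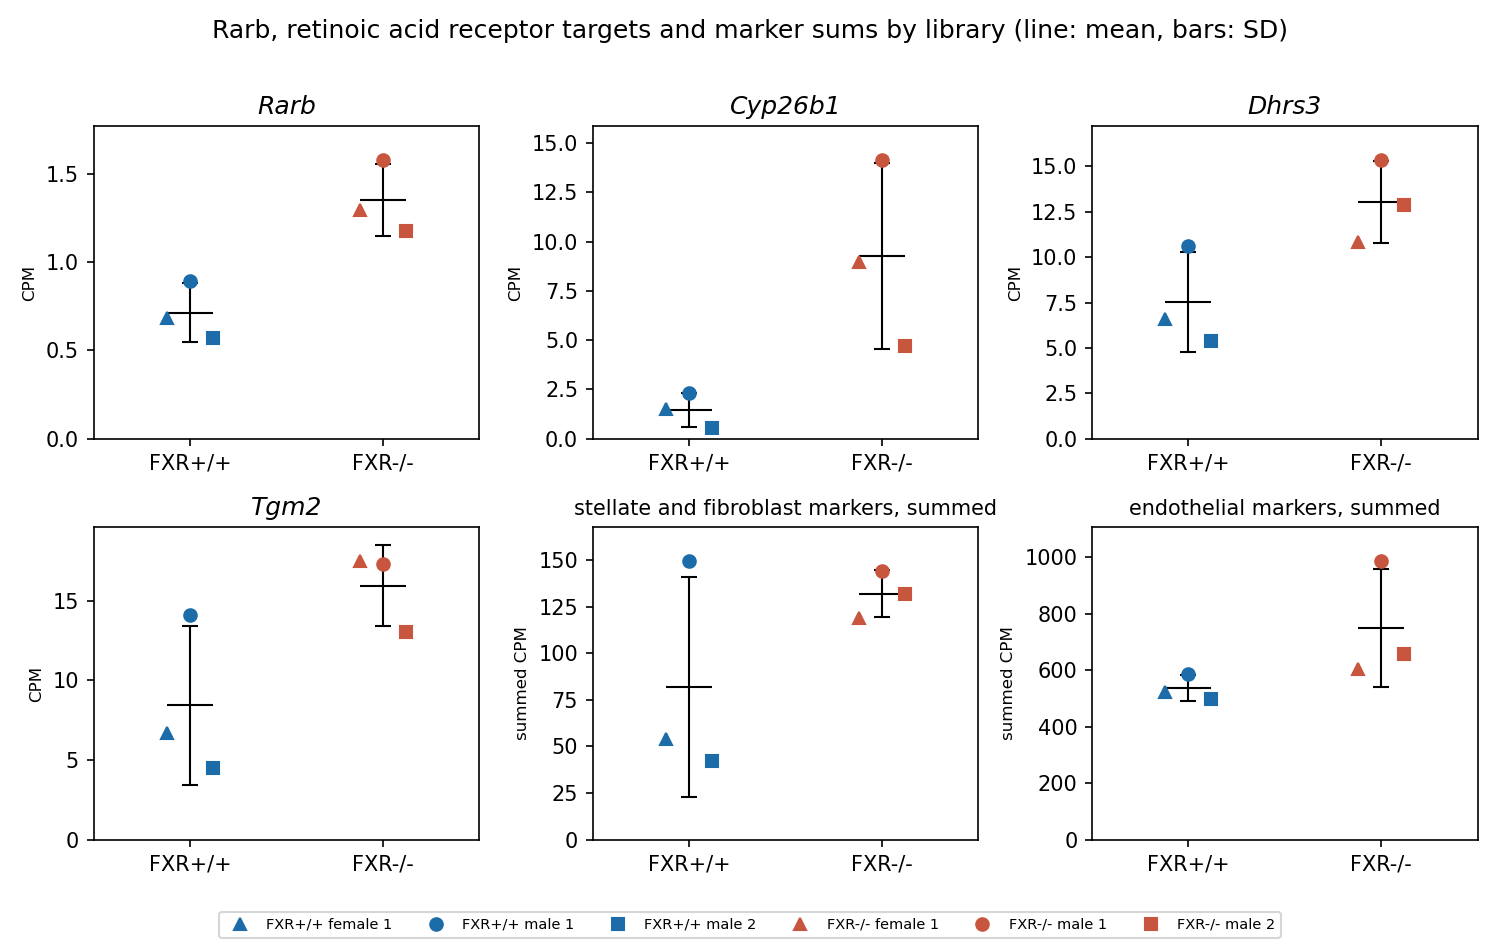
CPM in each library for *Rarb*, for 3 of the retinoic acid receptor targets and for the summed stellate cell and fibroblast markers and endothelial markers, with the mean as a line and the SD as bars. *Cyp26b1* is at 0.568 to 2.33 CPM in FXR+/+ and at 4.71 to 14.2 CPM in FXR-/-, and the stellate marker sum overlaps between the genotypes.

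Of the glucocorticoid receptor targets 4 of 9 were higher and 5 lower, with a median log2 fold change of -0.14. The 2 with an unadjusted p under 0.05 were both lower in FXR-/-. *Tsc22d3*, which encodes the glucocorticoid-induced leucine zipper protein, was at 31.2, 36.9 and 40.6 CPM in FXR+/+ and at 29.2, 28.8 and 25.8 CPM in FXR-/-, with a log2 fold change of -0.37 ± 0.11 and an adjusted p of 0.43. *Fkbp5*, a chaperone of the receptor, was at 150, 98.0 and 128 CPM in FXR+/+ and at 81.2, 104 and 66.1 CPM in FXR-/-. Male 1 went against the other pairs, and the log2 fold change of *Fkbp5* was -0.57 ± 0.19 with an adjusted p of 0.44.

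The oxysterol receptor targets were higher in 8 of 9 cases, with a median log2 fold change of 0.12. The lower one was *Abca1*, with a log2 fold change of -0.18 ± 0.10. *Srebf1*, the regulator of fatty acid synthesis genes, was at 110, 123 and 134 CPM in FXR+/+ and at 133, 150 and 162 CPM in FXR-/-. It was higher in each same-numbered pair although the groups overlap, with a log2 fold change of 0.28 ± 0.08 and an adjusted p of 0.41. Of the fatty acid oxidation genes listed as PPAR targets, 4 of 13 were higher and 9 lower, with a median of -0.05.

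Of the vitamin D and xenobiotic receptor targets, both of those tested were higher. *Abcb1a*, a drug efflux pump gene, was at 2.69, 3.07 and 2.12 CPM in FXR+/+ and at 4.09, 4.37 and 3.20 CPM in FXR-/-, a log2 fold change of 0.57 ± 0.23 with an adjusted p of 0.47. *Trpv6*, a calcium channel gene, had a log2 fold change of 0.59 ± 0.33, 0.36 without FXR-/- male 1, and *Cyp24a1*, the vitamin D inactivating enzyme gene, had too few counts for a test.

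Among the enzymes that make or clear ligands, 7 of 10 were higher, with a median of 0.25. *Hsd11b1*, which encodes an enzyme that regenerates active glucocorticoid, was at 0.384, 0.991 and 0.410 CPM in FXR+/+ and at 1.46, 2.05 and 0.799 CPM in FXR-/-, a log2 fold change of 1.32 ± 0.51 with an adjusted p of 0.46. Of the coregulators, 7 of 10 were higher with a median of 0.06. *Ncor1*, the nuclear receptor corepressor gene, was at 239, 227 and 224 CPM in FXR+/+ and at 271, 265 and 253 CPM in FXR-/-, without overlap. The log2 fold change of *Ncor1* was 0.20 ± 0.08 with an adjusted p of 0.47.

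No gene of the other 3 lists had an unadjusted p under 0.05. The thyroid hormone receptor targets had a median log2 fold change of 0.13, with *Hr* at 0.54 ± 0.27 and *Thrsp* at 0.27 ± 0.24. *Hr* was 0.29 without FXR+/+ male 2. *Thrsp* was 0.07 without FXR+/+ male 1 and 0.45 without FXR+/+ male 2. The HNF4A targets had a median of 0.00, with *Ttr* at 0.32 ± 0.22, 0.15 without FXR-/- male 1 and 0.49 without FXR+/+ female 1. *Apob*, the apolipoprotein B gene, was at 0.426, 0.595 and 3.50 CPM in FXR+/+ and at 0.527, 0.631 and 0.379 CPM in FXR-/-, so that male 2 of FXR+/+ stood apart. The log2 fold change of *Apob* was -1.48 ± 0.77 with that library and -0.02 without it. The targets of the oestrogen-related receptors had a median of -0.01, with *Perm1* at -0.24 ± 0.17 and *Cycs* at 0.18 ± 0.13. *Perm1* was -0.11 without FXR+/+ male 2 and -0.45 without FXR+/+ female 1. *Cycs* was 0.04 without FXR+/+ male 1 and 0.29 without FXR+/+ female 1.

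**Figure D5:**
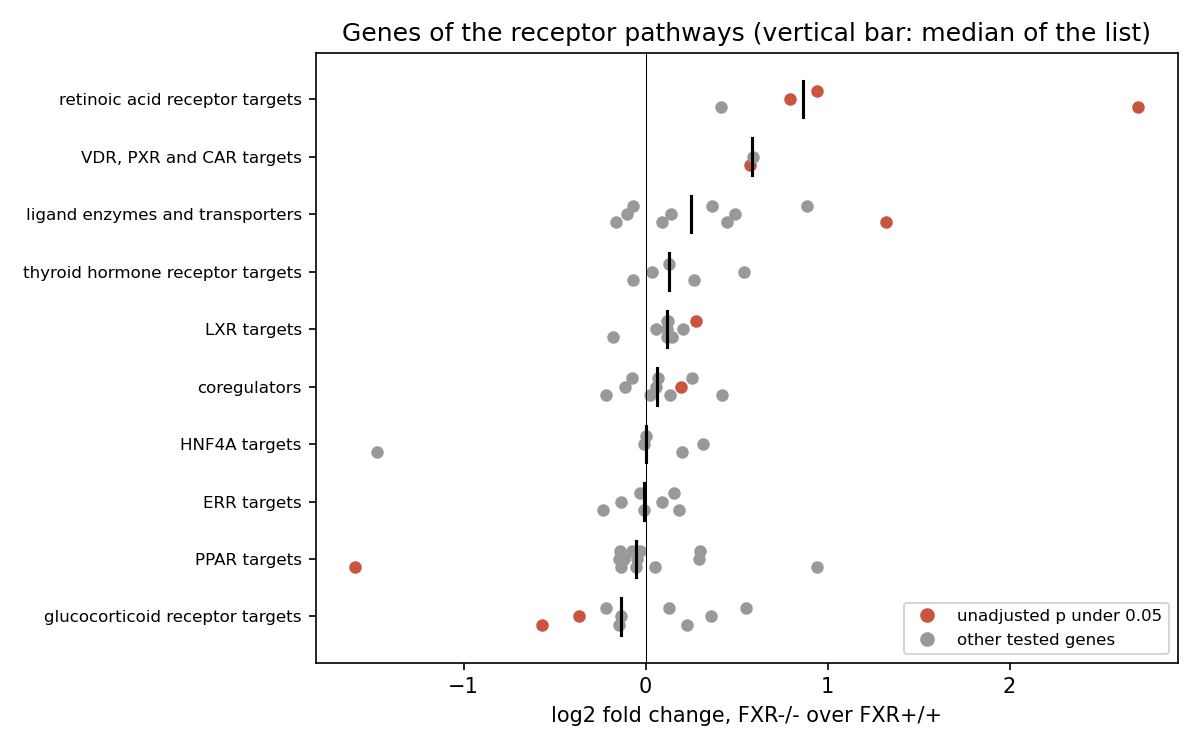
Fitted log2 fold change of FXR-/- over FXR+/+ for each tested gene of the 10 lists, with the median of each list as a vertical bar and genes with an unadjusted p under 0.05 in red. The retinoic acid receptor targets have the highest median, 0.87, and the glucocorticoid receptor targets the lowest, -0.14. The lists were chosen with earlier results of these data known.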

How the data were processed

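Per the labels, RNA was enriched for poly(A), fragmented and copied with random hexamers. HISAT is named in the submitters' processing notes, without a version, and the counting rule is not given in the sources used here. The authors deposited whole-number counts per gene (19342 genes) and per exon. The ends of 86.7% of the 139263 exons match GENCODE vM21 (GRCm38), and exon counts come to 32.3% to 36.6% of gene counts. The authors' own DESeq comparison holds mean values, log2 fold changes, p-values and q-values and was not used.

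The genotypes were compared on gene counts with edgeR 4.0.16 under R 4.3.3 (filterByExpr with minimum count 10 and minimum total 15, TMM, glmQLFit without legacy dispersions, glmQLFTest) with terms for sex and genotype, over all 6 libraries, and p-values were adjusted by Benjamini-Hochberg over 14619 genes. Calls had an adjusted p under 0.05. Standard errors come from the F statistic. The fit was tested on simulated data, and no outcome of that is reported here. DESeq2 1.42.0 was an alternative. CPM uses TMM-scaled library sizes, and levels per length divide it by the union of GENCODE exons. Exact two-sided permutation tests used log2(CPM + 0.01) over 20 relabellings.

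Same-numbered libraries of the genotypes deviated together from their group means (correlations over genes of 0.373 for female 1, 0.419 for male 1 and 0.346 for male 2), so the numbers were taken as pairing the samples, on the evidence of the data alone. No pair of libraries agreed within sampling noise. All receptors are named. Receptors with an unadjusted p under 0.05, with genotypes that do not overlap, or among the 8 highest per length are given in full, and of each list the genes with an unadjusted p under 0.05, or else the 2 with the largest fitted change. A few list genes are counted but their own values are not reported here. The members and lists were chosen with earlier results of these data known. The planned comparison of protein sequences was not run here. Promoter sequences are RefSeq's, in GRCm38.p6.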

Additional observations from a re-analysis of the deposited data

How the results depend on the processing

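No receptor was called for genotype in any of the 17 alternative settings, and the direction of each of the 8 receptors whose genotypes do not overlap was kept in all 17. Among the 17, the males alone and the fits without a female library are in effect the same comparison. With library size alone, the log2 fold change of *Nr2f6* was 0.14, that of *Nr2c2* -0.27 and that of *Nr3c1* -0.27. The number of receptors with an unadjusted p under 0.05 was 4 (16%, beside 10.3% of all genes). This number was 2 in the males alone (8%, beside 8.28%) and 2 with a term for acinar marker RNA (8%, beside 8.27%). DESeq2 gave 3 (12%, beside 9.1%). Library size alone gave 6 (24%, beside 10.3%), exon counts summed per gene 5 (20.8%, beside 9.69%) and the fit without a sex term 5 (20%, beside 9.34%). The number was 2 to 5 when each library was left out in turn. It was 2 without FXR+/+ female 1, FXR+/+ male 2, FXR-/- female 1 or FXR-/- male 1, where 8.21%, 6.46%, 8.37% and 5.78% of all genes had such a p, 5 without FXR+/+ male 1 (20%, beside 14.7%) and 4 without FXR-/- male 2 (16%, beside 7.24%). The median log2 fold change of the receptors, 0.02, was 0.087 in the males alone and 0.091 with exon counts summed per gene. It was -0.079 with library size alone, a setting in which the median of all genes was -0.087, and 0.0052 to 0.087 when each library was left out. With the replicate block in place of sex, 6 receptors had an unadjusted p under 0.05, 24% beside 16.1% of all genes in that fit, and of the list genes 1 was called and 16 had an unadjusted p under 0.05, where the model with sex gave 0 and 10. Without each library in turn, 7 to 16 list genes had an unadjusted p under 0.05, with the highest count without FXR+/+ male 1. DESeq2 called 1 list gene. Over all genes, 0 were called by the model with sex, 23 with the replicate block, 177 by DESeq2, 4 with exon counts summed per gene and 7 with the acinar term. For sex, 0 to 1 receptors had an unadjusted p under 0.05 when each library was left out. The replicate block changed no other call. The setting with legacy dispersion estimates was chosen after seeing the data. The cause of these differences was not tested. With 3 libraries a genotype, a permutation of labels cannot reach p = 0.05 for a single receptor, and receptors under about 1 CPM rest on few counts.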
